A study of Saccharomyces cerevisiae with 13 samples.

Results

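The pheromone response and mating genes of budding yeast (Saccharomyces cerevisiae) were examined for DNA double-strand breaks called by Break-Seq, an assay in which DNA ends are labelled with a biotinylated nucleotide inside agarose plugs, captured and sequenced. The set was chosen by name and has 38 genes among the 6002 protein-coding nuclear genes of the RefSeq R64 annotation, to which the sacCer3 build of the files corresponds. All 38 were found there. A gene was counted as hit in a list when a peak overlapped its body by 1 bp or more, and all positions are 1-based on sacCer3.

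The 13 peak lists came from 2 strains, each 1 line, mec1 (WFA73, which carries the mec1-1 allele of the checkpoint kinase gene MEC1) and WT (WFA72, MEC1 intact), grown in YPD and arrested in G1 by 3 µM alpha factor. The recovery lists (R) came from mec1 (Exp A and Exp B) and WT (Exp C) cells kept 1 h in fresh medium after 1 h in 200 mM hydroxyurea (HU, which blocks the enzyme that makes deoxyribonucleotides), and each was called against the HU library of its own experiment. The HU lists, taken 1 h after release from G1 into HU, were called from the HU library alone in mec1 (Exp A, Exp B and Control) and WT (Exp C and Control). For either strain the Control experiment added a list of HU over G1 and a list of HU over a mock reaction without biotin, read that way from the sample descriptions although the titles name G1 and mock material. The remaining list is of mec1 DNA from the G1 stage of Exp A after digestion by the restriction enzyme BamHI in the tube, and no other list here is of a G1 library.

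These lists stand on unequal ground. The Control lists over G1, over mock and alone of a strain share 1 HU library, so the 12 lists other than BamHI rest on 8 HU or R libraries. Of the 6 member genes hit in the mec1 Control HU list, all 6 lay under peaks with the same coordinates in the list over G1 and 4 under such peaks in the list over mock. The lists hold between 43 and 1296 peaks, and since the deposited files carry no read counts, the depth is unknown and a longer list can come from a deeper library. Exp A and Exp B are repeats of the mec1 experiment, but nothing in the labels says which lists of a group came from separate cultures, so a p-value over lists measures the spread between these lists, which may be technical. Breaks were measured here, and transcript levels were not.

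In haploid yeast of mating type a, the cell secretes a-factor and carries a receptor for the alpha factor of the opposite type. Bound receptor frees a G protein whose βγ part recruits a scaffold and a chain of protein kinases, and the last kinase acts through the transcription factor Ste12 on the genes for cell cycle arrest, agglutination, cell fusion and nuclear fusion. Alpha factor was the agent used to arrest these cultures, so they had been exposed to the pheromone before release into HU.

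Of the 38 genes, 13 (34.2%) were hit in at least 1 of the 12 lists other than BamHI, near the 36.5% of all coding genes hit there. A further 7 were hit in the BamHI list only and 18 in no list, and for these 2 counts the share of all coding genes was not computed. The 13 were MFA1 and MFA2, GPA1, FUS3, KSS1 and STE50, TEC1 and KAR4, FIG2, FUS1, KAR3 and CIK1, and PRM6. Counts by role below rest on 3 to 7 genes each and are to be read beside the 36.5% of all coding genes. MFA2 and FIG2 were the 2 hit in all 5 mec1 HU and R lists, a count of 2 of 38 (5.26%) against 0.883% of all coding genes. None of the 5 WT lists hit either of them, but each WT list hit only 1.48 to 5.18% of all coding genes. The share of all coding genes hit in all 5 mec1 lists and in no WT list was not computed. A WT R peak ended 32 bp before MFA2. Wide peaks of 1792 to 14026 bp gave these hits. They covered a median of 4 coding genes each, so that a hit often falls on a gene beside the middle of the called region.

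**Figure D1:**
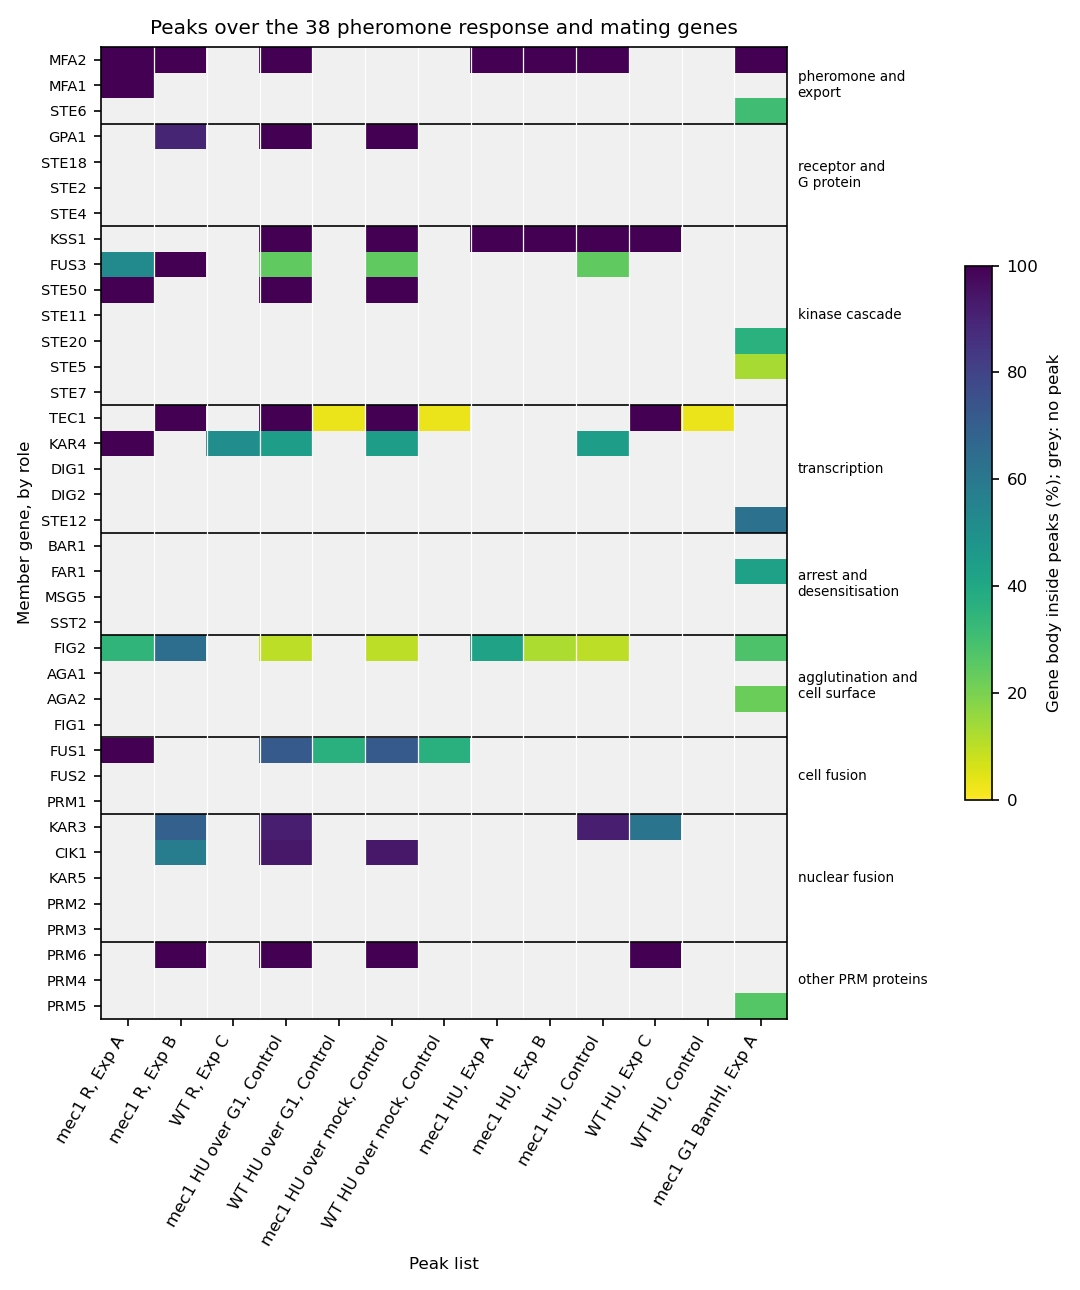
Each row is a member gene, grouped by role, and each column a peak list, and the colour gives the percentage of the gene body inside peaks, with grey for no peak. MFA2 and FIG2 are filled in all 5 mec1 HU and R lists and in the BamHI list. KSS1 is filled in all 3 mec1 HU lists and in WT HU of Exp C. Of the 4 arrest and desensitisation genes FAR1 alone is filled, in the BamHI column. Over the 12 other lists 36.5% of all coding genes were hit.

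Of the 3 genes for the pheromone and its export, MFA2 was hit in 6 of the 12 lists and MFA1 in 1. MFA2, 1 of the pair of genes for the a-factor precursor, lies on the forward strand of chromosome XIV from 352414 to 352530. It is 117 bp long. It was wholly covered in both mec1 R lists, by peaks from 350274 to 354354 in Exp A and from 348309 to 353188 in Exp B. The mec1 HU peaks ran from 350143 to 353496 in Exp A, from 350454 to 354303 in Exp B and from 350932 to 352906 in the Control list, and the list over G1 repeated the Control peak. No WT HU list and no list over mock hit MFA2, and the BamHI list did. The WT R list of Exp C had a peak from 349275 to 352382 that ended 32 bp before the first base of MFA2, so WT lacks a hit here by a small distance in 1 of its libraries. By their scores, the authors' own values, the mec1 HU peaks over MFA2 ranked 30 of 138 in Exp A, 140 of 151 in Exp B and 100 of 265 in the Control list.

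Peak midpoints at MFA2 lay before its start in each of the 6 mec1 lists other than BamHI that hit it. Relative to the first base of the gene they lay at -100 and -1666 bp in mec1 R of Exp A and Exp B, and at -595, -36 and -495 bp in mec1 HU of Exp A, Exp B and Control. LSM7, which codes for a subunit of an RNA-binding ring in messenger RNA decay and splicing, MPF1 and the small genes YNL146W and YNL146C-A lay under all 6 of these peaks. The other a-factor gene, MFA1 (chromosome IV, 1385176 to 1385286, forward strand), was hit in mec1 R of Exp A alone, by a peak from 1383442 to 1386371. In mec1 R of Exp B the nearest peak began 301 bp past its end. STE6, which codes for the exporter of a-factor, was hit in the BamHI list only.

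Of the receptor and G protein genes, 1 of 4 was hit outside the BamHI list. GPA1, which codes for the G protein α subunit that holds the signal off, lies on the reverse strand of chromosome VIII from 113499 to 114917. It was overlapped over 89.7% of its length in mec1 R of Exp B and over its whole length in the mec1 Control lists over G1 and over mock. It was not hit in the mec1 Control HU list called alone, in mec1 R of Exp A or in any WT list. OSH7, QCR10, LEU5, TCD1 and NEM1 were covered by the same peaks. STE2 (the alpha factor receptor), STE4 (Gβ) and STE18 (Gγ) were hit in no list.

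The kinase cascade had 3 of its 7 genes hit outside the BamHI list, KSS1, FUS3 and STE50. KSS1, a MAP kinase gene of the filamentation and pheromone pathways, lies on the forward strand of chromosome VII from 575398 to 576504. It was wholly covered in all 3 mec1 HU lists, by peaks from 574533 to 583502 in Exp A, from 574643 to 579888 in Exp B and from 574479 to 580143 in the Control list. WT HU of Exp C also covered it whole, from 574595 to 578805. The mec1 lists over G1 and over mock repeated the Control peak. The WT Control list did not hit it, nor did any mec1 R or WT R list. Since R was called against HU, a site that gave equal signal at both times would not appear in R, and its absence there is no measure of repair. Of the genes hit in every mec1 HU list, KSS1 alone was also hit in a WT HU list. Its peak ranked 39 of 138 by score in mec1 HU of Exp A, 5 of 151 in Exp B and 206 of 265 in the Control list, and 11 of 103 in WT HU of Exp C. BUD9, a bud site selection gene, and YGR039W were under all of these peaks, and midpoints lay 2513, 761 and 807 bp past the end of KSS1 in mec1 HU of Exp A, Exp B and Control, and 196 bp past it in WT HU of Exp C.

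FUS3 codes for the MAP kinase that is the main kinase of mating and lies on the forward strand of chromosome II from 192451 to 193512. It was hit in both mec1 R lists, over 52.6% of its length in Exp A (peak from 192954 to 202689) and whole in Exp B (190965 to 197588). Of the mec1 HU lists, the Control list alone hit it, over the last 261 bp (24.6%), and its lists over G1 and over mock repeated that peak. No WT list reached FUS3. ACH1, an acetyl-CoA hydrolase gene just downstream, was under every peak that hit FUS3. STE50, an adaptor of the kinase Ste11, lies on chromosome III from 63441 to 64481. It was wholly covered in mec1 R of Exp A and in the mec1 Control lists over G1 and over mock. STE11 and STE7, the upstream kinases of the cascade, were hit in no list, and STE20 (the kinase that starts it) and STE5 (its scaffold) in the BamHI list only.

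Of the 5 transcription regulators, TEC1 and KAR4 were hit. TEC1, whose product pairs with Ste12 on filamentation genes, lies on the forward strand of chromosome II from 409169 to 410629 and was the 1 member hit in both WT HU lists. No mec1 HU list called alone hit it. In mec1 it was wholly covered in R of Exp B (406321 to 420346) and in the Control lists over G1 and over mock (408653 to 419197), by peaks that ran downstream over MIS1. In WT the count of 1 of 38 (2.63%) stands beside 0.450% of all coding genes. WT HU of Exp C covered it whole (403960 to 412211). The WT Control list reached only its first 42 bp (2.87% of the gene) with a peak from 406108 to 409210 that lay mostly upstream, and its lists over G1 and over mock repeated that peak. TEC1 was thus hit in both strains, with peak midpoints past its end in mec1 and before its start in WT.

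KAR4, a transcription factor gene needed for nuclear fusion, lies on the forward strand of chromosome III from 27929 to 28936. Peaks in mec1 covered it whole in R of Exp A (26156 to 39022) and over 44.5% in the Control HU list (28488 to 33005), with the same Control peak in the lists over G1 and over mock. It was the only member hit in the WT R list, where a peak from 28424 to 31735 covered 50.9% of it. RDT1 and SPB1, an rRNA methyltransferase gene, were under all of these peaks. STE12, the main transcription factor of the response, was hit in the BamHI list only, and DIG1 and DIG2, which code for its repressors, in none.

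None of the 4 genes for arrest and desensitisation was hit outside the BamHI list. In the 12 other lists 36.5% of all coding genes and 34.2% of the set were hit. With 4 genes the count does not set this role apart, and no test was made. FAR1, which codes for an inhibitor of the G1 cyclin kinase, was hit in the BamHI list. BAR1 (the protease that degrades alpha factor), SST2 (the regulator that turns the G protein off) and MSG5 (a MAP kinase phosphatase) were hit in no list.

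Among the 4 cell surface genes, FIG2 was hit and AGA1, AGA2 and FIG1 were not, apart from AGA2 in the BamHI list. FIG2 codes for a cell wall adhesin made during mating and is the longest member at 4830 bp. It lies on the forward strand of chromosome III from 267434 to 272263. Its end is 44.1 kb short of the last gene or peak end on that chromosome. Peaks in mec1 R covered 34.6% of it in Exp A (270595 to 274764) and 63.8% in Exp B (269184 to 274224). In mec1 HU they covered 42.5% in Exp A (270209 to 274684), 12.3% in Exp B (271670 to 274356) and 10.0% in the Control list (271781 to 273572), and the lists over G1 and over mock repeated the Control peak. Every one of these peaks reached past the 3′ end of FIG2 and overlapped YCR090C beyond it, and none reached the start of FIG2. The midpoint lay inside FIG2 in mec1 R of Exp B and 183 to 750 bp past its end in the other mec1 lists. No WT list had a hit, and the BamHI peak lay inside the gene.

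**Figure D2:**
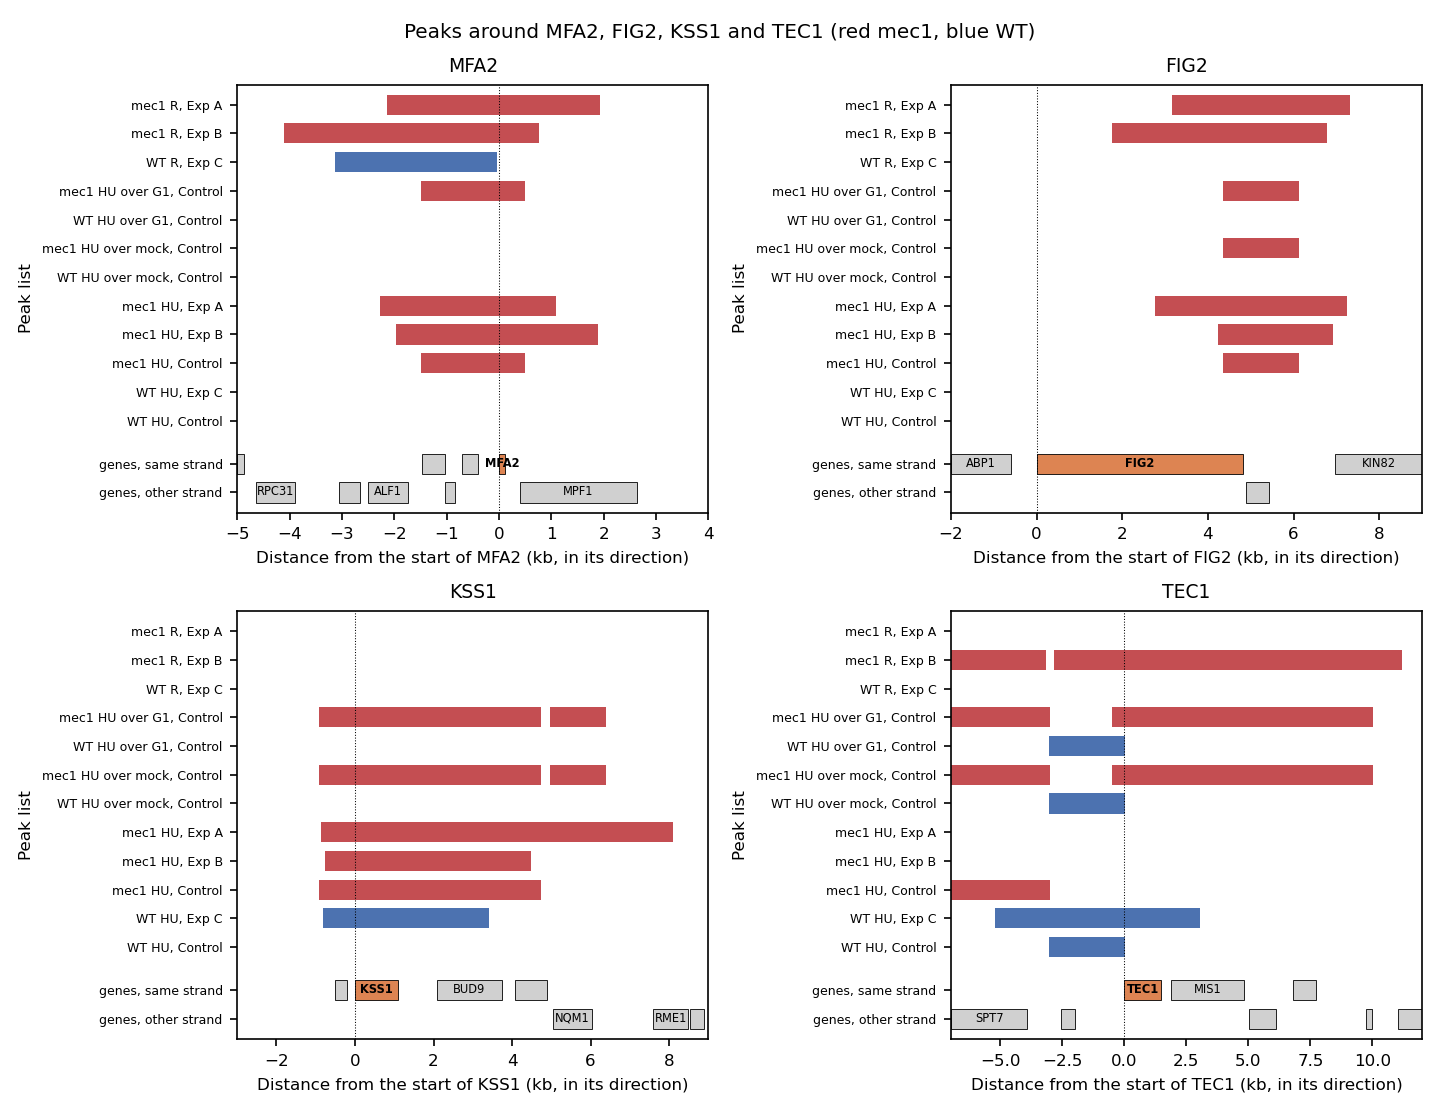
Bars show the peaks of the 12 lists other than BamHI (rows) around MFA2, FIG2, KSS1 and TEC1, against the distance from each gene's start in kb, with mec1 in red and WT in blue and coding genes drawn below by strand. The mec1 peaks at FIG2 sit over its end and beyond, the WT R peak at MFA2 stops 32 bp short of the gene, and the WT Control peaks at TEC1 reach only its first 42 bp.

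Of the cell fusion genes, FUS1 was hit and FUS2 and PRM1 were not. FUS1, a membrane protein gene of the fusing cell tip and a standard reporter of the pheromone response, lies on the forward strand of chromosome III from 71803 to 73341. Mec1 R of Exp A covered it whole. The mec1 Control lists over G1 and over mock covered 71.8% of it, and the WT Control lists over G1 and over mock 36.7%, with a peak from 70290 to 72367 whose midpoint was at -475 bp from its start. No list called from HU alone hit it in either strain. The peaks that hit FUS1 in mec1 were those that hit STE50, at 60260 to 73795 in R of Exp A and 62403 to 72907 in the Control lists, so in each list both hits rest on 1 called region. HIS4, a histidine synthesis gene, lies at their middle. RNQ1, a prion protein gene next to FUS1, was under all 5 peaks.

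Nuclear fusion gave 2 of 5 genes, the motor and its partner. KAR3 codes for a kinesin and lies on the reverse strand of chromosome XVI from 815734 to 817923. It was hit in mec1 R of Exp B over 69.5% of its length (811206 to 817254), in the mec1 Control HU list over 91.6% (814614 to 817740, also over G1 but not over mock) and in WT HU of Exp C over 61.6% (816576 to 823593). The mec1 peaks ran past its 3′ end to TAZ1, and the WT peak ran past its 5′ end over RRP15, NOC4 and ASN1. The midpoint lay 1504 bp past the end of KAR3 in mec1 R, inside it in the mec1 Control list and before its start in WT (-2161 bp). The mec1 and WT peaks overlap each other inside KAR3, but they extend past opposite ends of the gene and their midpoints lie apart. CIK1, which codes for the partner of Kar3, lies on chromosome XIII from 659745 to 661529. It was hit over 57.6% in mec1 R of Exp B, by a peak from 660502 to 663081 that also covered part of CLN1, a G1 cyclin gene, and over 93.4% in the mec1 Control lists over G1 and over mock. KAR5, PRM2 and PRM3 were hit in no list.

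PRM6 was the 1 of the remaining 3 pheromone-regulated membrane protein genes hit outside the BamHI list. It lies on the reverse strand of chromosome XIII from 180017 to 181075 and was wholly covered in mec1 R of Exp B (169577 to 183461), in the mec1 Control lists over G1 and over mock (170969 to 182528) and in WT HU of Exp C (178307 to 184502). That WT peak ranked 2 of 103 by score. No mec1 HU list called alone hit PRM6. GSF2 and PRP39 lay under all of these peaks. PRM4 was hit in no list and PRM5 in the BamHI list only.

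**Figure D3:**
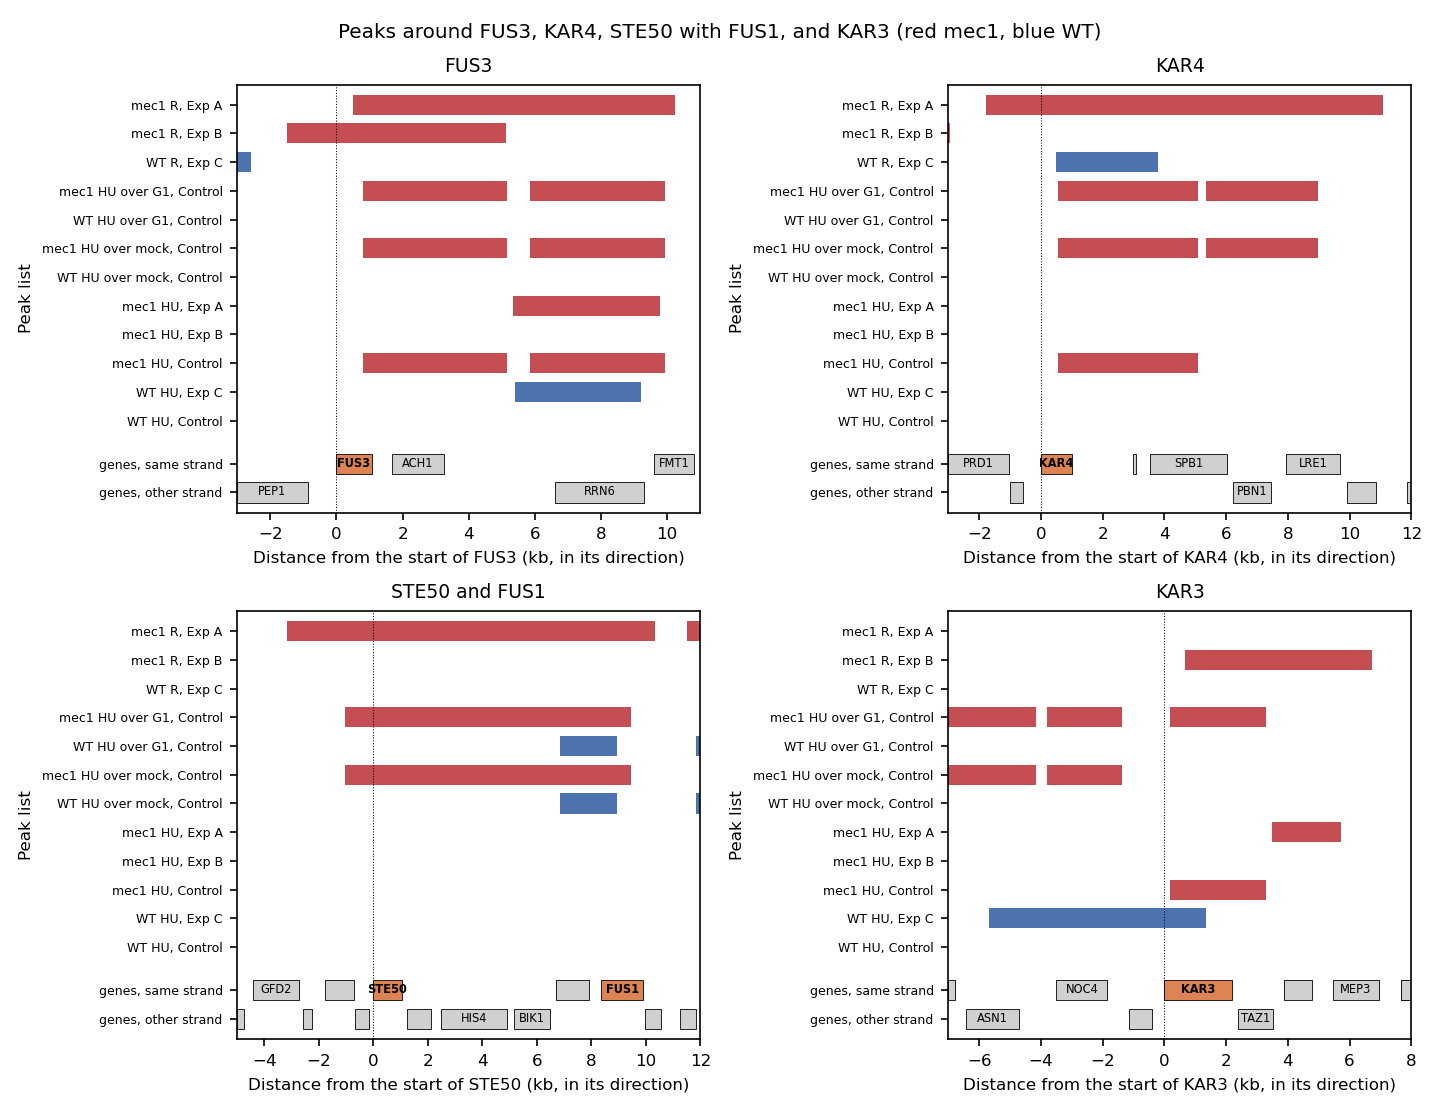
Bars show the peaks of the 12 lists other than BamHI around FUS3, KAR4, STE50 with FUS1, and KAR3, drawn as distance in kb from the start of FUS3, KAR4, STE50 or KAR3, with mec1 in red and WT in blue. A single mec1 peak per list spans STE50 and FUS1, the WT peaks there reach FUS1 only, and at KAR3 the WT HU peak runs on beyond the start of the gene and the mec1 peaks beyond its end, with an overlap inside the gene.

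The first comparison asked whether these genes were hit more often after HU in the mutant than in WT. The mec1 HU lists hit 3 genes in Exp A (7.89%, exact Clopper-Pearson 95% interval 1.66 to 21.4%), 3 in Exp B (7.89%, 1.66 to 21.4%) and 6 in the Control list (15.8%, 6.02 to 31.3%). Of all coding genes those lists hit 5.40, 5.91 and 10.6%. The WT HU lists hit 4 in Exp C (10.5%, 2.94 to 24.8%) and 1 in the Control list (2.63%, 0.0666 to 13.8%), beside 5.18 and 1.48% of all coding genes. The intervals, here and below, cover counting error only and treat the 38 genes as independent. Members can share a peak, as FUS1 and STE50 did in mec1 R of Exp A and the mec1 Control lists over G1 and mock. Each interval in this comparison contained the share of all coding genes.

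Means were 4 ± 1.73 genes in mec1 and 2.50 ± 2.12 in WT (SD, n = 3 and 2 lists), a difference of 1.50 that is smaller than the spread between lists (exact permutation p = 0.6, two-sided, where the smallest that 3 lists against 2 can give is 0.2). The groups overlap, since WT Exp C had more hits than mec1 Exp A and Exp B. After the share of all coding genes hit in the same list was subtracted, mec1 lists stood 3.22 ± 1.72 percentage points above it and WT lists 3.25 ± 2.97 (exact permutation p = 1, two-sided). The difference in genes hit was 5.00 within the Control experiment and -1 for mec1 Exp A and Exp B against WT Exp C, so its direction depended on the experiments compared. The WT mean was 1.00 without Exp C and 4 without the Control list, which makes the difference 3.00 and 0.

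In all 3 mec1 HU lists 3 genes were hit (KSS1, MFA2 and FIG2), 7.89% of the set against 1.73% of all coding genes. With 3 genes this share rests on few sites, and no test of it was made. Exp A and Exp B each shared 1 gene with WT Exp C, KSS1, which is 33.3% of the mec1 hits and 25.0% of the WT hits. The mec1 Control list shared KSS1 and KAR3 with WT Exp C and no gene with the WT Control list. These overlaps between strains were not counted over all coding genes, so they stand without a background.

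**Figure D4:**
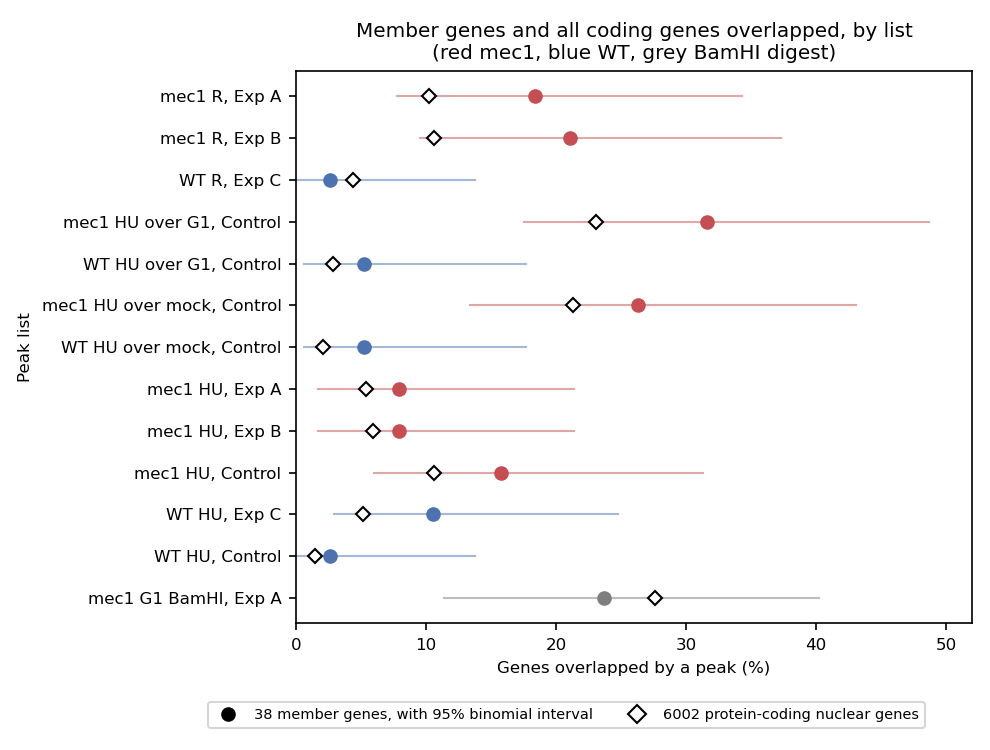
Filled circles give the percentage of the 38 genes overlapped by a peak in each list with the exact 95% binomial interval, in red for mec1, blue for WT and grey for the BamHI digest, and open diamonds give the percentage of the 6002 coding genes. Circles lie to the right of diamonds in 11 of the 13 lists, with WT R and BamHI as the exceptions, and every interval includes its diamond. The Control lists of a strain share an HU library, so these lists are not 11 separate observations.

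The second comparison asked which genes stood above the HU level after 1 h of recovery. The mec1 R lists hit 7 genes in Exp A (18.4%, interval 7.74 to 34.3%) and 8 in Exp B (21.1%, 9.55 to 37.3%), beside 10.2 and 10.6% of all coding genes. These were 4 and 5 genes more than in mec1 HU of the same experiments, and the share of all coding genes was 4.80 and 4.73 percentage points higher in R as well. Over all lists, mec1 R averaged 7.50 ± 0.707 genes and mec1 HU 4 ± 1.73 (SD, n = 2 and 3), a difference of 3.50 (exact permutation p = 0.2, two-sided, the smallest possible here). Every mec1 R list hit more of the set than any mec1 HU list called alone. The R lists were called against a second library and these HU lists were not, and the mec1 Control HU library hit 12 genes over G1 and 10 over mock, more than either R list, against 6 alone. The way of calling and the time point cannot be told apart in this difference. Counted by 200 bp around peak midpoints, the difference was 0.333 genes, with means of 1.00 in R and 0.667 in HU. Relative to all coding genes, the lists stood 9.32 ± 1.54 points above in R and 3.22 ± 1.72 in HU, a difference of 6.10 points (exact permutation p = 0.2, two-sided). R and HU lists of an experiment share the HU library, against which R was called.

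Both mec1 R lists hit FUS3, MFA2 and FIG2, 7.89% of the set against 3.78% of all coding genes. Exp A added MFA1, STE50 with FUS1 under 1 peak, and KAR4, and Exp B added GPA1, TEC1, KAR3, CIK1 and PRM6. In each experiment R and HU shared 2 genes, MFA2 and FIG2, which were 28.6% of the R hits and 66.7% of the HU hits in Exp A and 25.0 and 66.7% in Exp B. KSS1 was the HU hit without an R hit in both. Hits shared by R and HU were not counted over all coding genes, so these shares stand without a background. At MFA2 and FIG2 a peak was thus called in R over an HU library that had a called peak of its own there.

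In WT the R list of Exp C hit 1 gene, KAR4 (2.63%, interval 0.0666 to 13.8%), beside 4.35% of all coding genes. The HU list of that experiment hit 4 (KSS1, TEC1, KAR3 and PRM6). None was shared, and the overlap of these lists over all coding genes was not counted. Between the strains, mec1 R of Exp A also hit KAR4 and mec1 R of Exp B did not.

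The third comparison concerned the way the Control HU libraries were called. The mec1 library gave 12 genes over G1 (31.6%, interval 17.5 to 48.7%), 10 over mock (26.3%, 13.4 to 43.1%) and 6 alone, beside 23.1, 21.3 and 10.6% of all coding genes. FUS1, STE50, TEC1, CIK1, GPA1 and PRM6 appeared only when the library was set against another. MFA2 and KAR3 were called over G1 and alone but not over mock. The WT library gave 2 genes over G1, 2 over mock (both 5.26%, interval 0.644 to 17.7%) and 1 alone, beside 2.82, 2.07 and 1.48% of all coding genes, and the 2 were FUS1 and TEC1. With 1 list for each way of calling there is no test, and the lists share their HU library.

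The BamHI list, from DNA cut at the recognition sites of a restriction enzyme, hit 9 genes (23.7%, interval 11.4 to 40.2%), beside 27.6% of all coding genes. Besides MFA2 (peak from 351763 to 353267) and FIG2 (270765 to 272123) these were STE5, STE6, STE12, STE20, FAR1, AGA2 and PRM5, none of them hit elsewhere. The 9 peaks were 1166 to 1505 bp wide, narrower than any peak over a member in the other lists. Whether the BamHI peaks at MFA2 and FIG2 lie at recognition sites was not tested.

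The 18 genes hit in no list were STE2, STE4, STE18, STE7, STE11, DIG1, DIG2, BAR1, SST2, MSG5, AGA1, FIG1, FUS2, PRM1, KAR5, PRM2, PRM3 and PRM4. They include the receptor, Gβ and Gγ and both repressors of Ste12. With BamHI left aside, 25 of the 38 genes and 3814 of the 6002 coding genes were hit in none of the 12 lists. Absence from the lists is therefore not shown to be particular to the set. The 13 genes hit in the 12 lists had a median length of 1107 bp and the other 25 a median of 1548 bp, while all coding genes hit there had a median of 1239 bp and those not hit 1182 bp.

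Peaks met these genes mostly whole or from the 3′ side. Over the 8 lists with a library each, there were 33 pairs of a gene and a peak, of which 18 (54.5%) covered the whole gene, 13 (39.4%) its 3′ end only and 2 (6.06%) its 5′ end only. For all coding genes, with 3281 pairs, these shares were 51.1, 26.9 and 21.3%. The peak midpoint lay past the 3′ end in 20 pairs (60.6%, all coding genes 41.3%), before the start in 11 (33.3%, all 37.0%) and inside the gene in 2 (6.06%, all 21.7%). FIG2 alone gives 5 of the pairs, all of them among the 13 that met only the 3′ end. The excess of pairs that met only the 3′ end thus rests largely on FIG2, and the whole-gene share was near that of all coding genes. KSS1 gives 4 pairs, all with the midpoint past its 3′ end. The midpoint shares were not recomputed without FIG2 or KSS1. The pairs are not independent, and no test was made.

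By chromosome, a grouping made after the values were seen, all 4 members on chromosome III (KAR4, STE50, FUS1 and FIG2) were hit in at least 1 of the 7 mec1 lists other than BamHI. Of the 168 coding genes of that chromosome 57.7% were hit there, against 33.0% of all coding genes and 34.2% of the set. Chromosome III thus had a high share of its genes under mec1 peaks in general.

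Hits close to the 1 bp threshold were few. The smallest partial overlaps in the 12 lists other than BamHI were 42 bp of TEC1 (WT Control) and 261 bp of FUS3 (mec1 Control). MFA1 (111 bp) and MFA2 (117 bp) were covered whole where hit. In the BamHI list, AGA2 was overlapped by 59 bp (22.3% of the gene) and PRM5 by 252 bp (26.3%). With BamHI left aside, the nearest misses within 500 bp were MFA2 in WT R (32 bp) and MFA1 in mec1 R of Exp B (301 bp).

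A further 38 genes of the same biology outside the set, among them genes of alpha cells, of pheromone processing and of cell polarity, were counted the same way, and 12 (31.6%) were hit in any of the 12 lists, beside the 36.5% of all coding genes. The mec1 R lists hit 3 of them in Exp A (7.89%) and 2 in Exp B (5.26%), beside 10.2 and 10.6% of all coding genes. The WT R list hit 2 (5.26%, all coding genes 4.35%). The mec1 HU lists hit 2 in Exp A (5.26%) and 1 each in Exp B and Control (2.63%), beside 5.40, 5.91 and 10.6% of all coding genes. The WT HU lists hit 2 in Exp C (5.26%) and 1 in Control (2.63%), beside 5.18 and 1.48%. The Control lists over G1 and over mock hit 6 each in mec1 (15.8%), beside 23.1 and 21.3% of all coding genes. In WT they hit 2 and 1 (5.26 and 2.63%), beside 2.82 and 2.07%. None of the 38 was hit in all 3 mec1 HU lists or in both mec1 R lists, where 1.73 and 3.78% of all coding genes were.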

How the data were processed

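Each sample came with a list of peak positions and a score per peak. Per the labels, the authors called peaks with MACS in each sample, from 1 library or against a second one. The submitters' processing notes name sacCer3 for all samples, Bowtie2, BWA 0.6.2 and MACS 1.4.1 for 7 samples and BWA for the Control samples. The sources used here state neither settings nor filters. No scale is stated for the deposited score, whose lowest value is 50.21, so scores rank or select peaks inside 1 list and are never compared between lists.

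Group, strain and experiment (used as replicate) came from titles and descriptions. Starts were raised by 1 and 2-digit chromosome names translated. Strand was read from the systematic gene name. Overlap with the 6431 nuclear genes of RefSeq R64, of which 6002 are protein-coding, was counted in Python 3.11.15, and the counting was tested on simulated peaks (200 of 200 planted overlaps recovered among 6002 genes). Lists were compared by exact permutation (scipy 1.17.1, two-sided). Intervals are exact Clopper-Pearson at 95%. Exp A and Exp B pair R with HU per the labels, since R was called against HU of the same experiment.

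The genes and lists were chosen with earlier results of these data known. Genes hit in all lists of a group of 2 or more, or in 4 or more of 12 lists, were described singly, and the others by role. Alternatives were an overlap of 200 bp or 50% of the gene, 200 bp at peak midpoints, a score of at least 100, 500 bp added before the start, another background, leaving out lists, single experiments and the replicate block. One result on a gene outside the set is not reported here.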

Additional observations from a re-analysis of the deposited data

Results flagged for a closer look

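The number of genes hit in R, called over HU, minus the number hit in HU, called alone, had opposite signs in the strains. In mec1 the R list hit 4 more of the genes than the HU list in Exp A and 5 more in Exp B, and in WT it hit 3 fewer in Exp C (R minus HU -3). The difference between the strains was not tested, as WT has 1 such experiment. Since R lists hold only sites called above HU, these values are differences between lists and not changes of break level. The share of all coding genes had the same signs, with R minus HU at 4.80 and 4.73 percentage points in mec1 and -0.833 in WT. Whether read depth differed between these libraries is unknown.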

How the results depend on the processing

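Of 75 recomputed values, 59 kept the direction or lay within 1.5 times of the reported count. Requiring 50% of the gene gave a mean of 2.33 genes in mec1 HU. With 200 bp around midpoints the values were 1.00 in mec1 R, 0 in WT R, 0.667 in mec1 HU and 0 in WT HU, as most midpoints lie beside the genes. With 500 bp added before the start, WT R hit 2.00 genes. Leaving out a list gave 7.00 to 8.00 genes in mec1 R, 3.00 to 4.50 in mec1 HU and 1.00 (without Exp C) to 4 (without Control) in WT HU. For mec1 HU minus WT HU, leaving out a list gave 0 to 3.00 genes and, relative to all coding genes, -2.13 to 2.07 points, where the reported value was -0.0291. That relative difference was also above 0 at midpoints (0.460), with all nuclear genes as background (0.130) and within the Control experiment (4.03). Without the Control experiment the difference in genes was -1, and the cause was not tested. The difference mec1 R minus mec1 HU stayed above 0 under all alternatives run. Its lowest values, both at midpoints, were 0.333 genes (11 alternatives) and 0.372 points relative to all coding genes (12 alternatives). Every alternative kept R called over HU and HU called alone. They therefore cannot separate the time point from the way of calling, in genes or relative to all coding genes. The paired fit with Exp A and Exp B as the replicate block gave 4.50 genes and 7.08 points (exact permutation p = 0.5 for each, two-sided, the smallest 2 pairs can give), and it changed no call. MFA1 and MFA2 are shorter than 200 bp and so cannot pass the 200 bp overlap. Unknown depth limits every absence of a peak.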
